A study of Mus musculus with 8 samples.

Results

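Hnf4a, Hnf4g, Pax2, Pax8, Lhx1, Emx2, Tfcp2l1 and Grhl2 are 8 transcription factors that build and maintain the kidney epithelium. They are described here in GFP-positive cells sorted from injured and uninjured mouse kidneys. The 8 genes were chosen by their measured intensity differences between these groups in the same 8 arrays, so their own values are a description and carry no test. Of the 8, 7 were measured among 18193 genes, and Pax2 is not analysed here because no probe set carries its symbol alone. All 7 measured factors had a lower mean in ischemic than in normal arrays, as did 45.2% of all genes. In 3 of them (Hnf4a, Tfcp2l1 and Emx2) every ischemic array lay below every normal array, as in 3.44% of all genes. Other probe sets of Lhx1 and Grhl2 had a higher mean in ischemic arrays, and Hnf4g lay near the lowest intensities.

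All mice were male C57BL/6 animals aged 6 months that carried an FSP1-eGFP transgene, in which the promoter of S100a4 (also called Fsp1) drives GFP. The ischemic group held 5 kidneys, collected at day 3 after the left renal artery and vein were closed with a clamp for 45 minutes and then released. The control group held 3 kidneys without ischemia, which are titled normal and whose source is given as sham. Buprenorphine was given after surgery. GFP-positive cells were collected by flow sorting, and their amplified RNA was read on Affymetrix mouse 430 2.0 arrays. The labels call the samples separate kidneys, and where controls do not come from separate mice the p-values given here measure only the spread between these samples.

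The kidney tubule derives from nephron progenitors and from the ureteric bud. Pax2, Pax8, Lhx1 and Emx2 are homeobox or paired-box factors needed while these structures form, and several stay on in the adult tubule. HNF4A is a nuclear receptor that drives the transporter and metabolic genes of the proximal tubule, and HNF4G is its close relative. TFCP2L1 and GRHL2 belong to the related CP2 and grainyhead families. TFCP2L1 acts in the distal nephron and collecting duct, and GRHL2 maintains epithelial junctions in the collecting duct. Macrophages and fibroblasts, the cells that an S100a4 reporter is often used to follow, are not known for these factors.

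Several facts about the arrays bear on every value. Xist, the RNA of the inactive X chromosome, had intensities of 2086 and 607 in ischemic 1 and 2 and 2261 in normal 1, against 6.08 to 16.5 in the other 5 arrays, although all mice are labelled male. Eif2s3y, a gene of the Y chromosome, had 40.4 to 184 in those 3 arrays and 199 to 457 in the others. Kdm5d and Uty, also of the Y chromosome, did not separate the arrays in this way. Kdm5d had 64.4 to 199 in those 3 and 185 to 699 in the others, and Uty 7.78 to 81.9 and 25.3 to 102. Ischemic 2 was the highest of the 3 for each of these genes. Differences of the factors and list medians are also given within the 5 arrays of low Xist signal and within the 3 of high Xist signal. Ischemic 1 was also the array least like the others, with a median Pearson r of 0.753 over genes, where the rest lay at 0.85 to 0.913. S100a4, on the log2(intensity + 16) scale, had a mean of 11.97 ± 0.27 in ischemic arrays (SD, n = 5) and 11.61 ± 0.32 in normal ones (SD, n = 3) (two-sided exact permutation p = 0.143). Without ischemic 1 the difference in S100a4 was 0.47 (exact permutation p = 0.0286). Of the marker lists, the 12 macrophage genes had summed intensities of 22829 to 33994 in ischemic and 18612 to 22881 in normal arrays. The 10 fibroblast genes summed to 411 to 1715 and 482 to 832. The 10 proximal tubule markers summed to 2559 to 4663 in ischemic and 11104 to 24616 in normal arrays. No gene (0 of 18193) passed limma's adjusted threshold of 0.05. Unadjusted limma p-values under 0.05 numbered 913 (5.02%) on the lower and 384 (2.11%) on the higher side.

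The annotated start regions of the factors whose values differ most are shown first. Which annotated start these cells use was not measured. Sequences are from RefSeq (build GRCm38.p6), which had windows for 6 of the 8 factors and no entry for Hnf4g or Grhl2. Each window runs from 250 bases before to 50 after an annotated start, 5′ to 3′ on the gene's strand. Capitals mark every match on either strand to 4 motifs searched, namely CAAAGTCCA for HNF4, AACCGGTT for grainyhead factors, GGGCGG for SP1, and the core promoter element TATAAA. For Hnf4a the 2 annotated starts are shown, the upstream one at chr2:163506607-163506906 and the downstream one at chr2:163546905-163547204, both on the plus strand. Pax8 is at chr2:24475550-24475849 on the minus strand, Emx2 at chr19:59458440-59458739 and Tfcp2l1 at chr1:118627695-118627994, the last pair on the plus strand.
Hnf4a upstream start: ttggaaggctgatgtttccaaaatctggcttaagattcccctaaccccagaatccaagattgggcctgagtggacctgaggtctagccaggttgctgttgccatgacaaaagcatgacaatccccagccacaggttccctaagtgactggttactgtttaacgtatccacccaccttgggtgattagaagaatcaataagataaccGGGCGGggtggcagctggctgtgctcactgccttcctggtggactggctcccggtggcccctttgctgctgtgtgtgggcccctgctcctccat
Hnf4a downstream start: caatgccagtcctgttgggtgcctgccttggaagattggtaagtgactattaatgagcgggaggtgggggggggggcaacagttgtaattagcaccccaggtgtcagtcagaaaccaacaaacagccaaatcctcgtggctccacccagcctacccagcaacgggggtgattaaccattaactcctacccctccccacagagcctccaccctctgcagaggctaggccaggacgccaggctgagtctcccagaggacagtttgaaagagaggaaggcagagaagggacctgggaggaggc
Tfcp2l1: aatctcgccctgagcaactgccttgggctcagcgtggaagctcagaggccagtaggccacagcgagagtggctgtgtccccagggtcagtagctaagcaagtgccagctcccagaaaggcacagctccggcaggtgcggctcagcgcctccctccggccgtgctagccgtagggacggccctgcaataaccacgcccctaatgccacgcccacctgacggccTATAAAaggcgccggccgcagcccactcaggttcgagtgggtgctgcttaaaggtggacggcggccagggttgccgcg
Emx2: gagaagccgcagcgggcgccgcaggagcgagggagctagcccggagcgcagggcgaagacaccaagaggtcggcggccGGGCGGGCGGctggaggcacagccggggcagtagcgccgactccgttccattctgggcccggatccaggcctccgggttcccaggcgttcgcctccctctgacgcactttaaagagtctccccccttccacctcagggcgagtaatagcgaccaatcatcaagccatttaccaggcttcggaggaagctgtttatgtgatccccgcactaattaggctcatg
Pax8: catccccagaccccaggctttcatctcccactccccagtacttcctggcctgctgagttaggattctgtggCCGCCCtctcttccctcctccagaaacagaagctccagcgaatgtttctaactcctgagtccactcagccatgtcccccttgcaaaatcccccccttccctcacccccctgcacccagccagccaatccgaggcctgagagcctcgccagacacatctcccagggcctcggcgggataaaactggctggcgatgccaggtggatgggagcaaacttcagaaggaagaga

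Positions are counted from the start, negative upstream of it. The upstream Hnf4a window holds GGGCGG at −44, and the downstream one holds none of the 4 motifs. Tfcp2l1 has TATAAA at −28, which 13.6% of 32851 RefSeq windows contain. Emx2 has GGGCGG at −172 and −168, overlapping each other, and Pax8 has it on the minus strand at −179. GGGCGG is common, in 35.7% of windows. Neither CAAAGTCCA (0.475% of windows) nor AACCGGTT (0.146%) occurs in any member's window, and Lhx1 had no match to any of the 4. These matches describe letters and were not tested as sites, and no motif was shared by the 3 factors whose groups did not overlap.

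Hnf4a had the largest difference in means among the measured factors. Its intensities were 60.1, 151, 144, 19.0 and 99.5 in ischemic arrays 1 to 5 and 1662, 905 and 414 in normal arrays 1 to 3. The lowest normal array was thus above the highest ischemic one. On the log2(intensity + 16) scale, used for all differences below, the ischemic mean of Hnf4a was 6.63 ± 0.89 (SD, n = 5) and the normal mean 9.56 ± 0.96 (SD, n = 3). The difference, ischemic minus normal, was −2.93 ± 0.59 (SE), or 7.64-fold lower on that scale, where added 16 compresses the folds of dim genes. The 5 arrays of low Xist signal gave −2.68, and the 3 of high signal −3.63. In bulk RNA of sorted cells, fewer cells of a type and less RNA per cell cannot be told apart, and this holds for each factor.

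Hnf4g, by contrast, lay at the bottom of the scale. Intensities were 9.32, 3.14, 4.23, 1 and 1 in ischemic arrays and 21.4, 1.45 and 5.04 in normal arrays. Only normal 1 stood above the others, and the groups overlapped. The difference was −0.34 ± 0.28 (SE), and −0.0084 without normal 1. It was −0.084 among low and −0.87 among high Xist arrays, and a pseudocount of 1 turned it to 0.045.

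Pax8, Lhx1 and Emx2 differed among themselves in how cleanly the groups separated. Emx2 had intensities of 19.5, 30.8, 32.0, 17.6 and 38.3 in ischemic and 88.2, 60.3 and 56.1 in normal arrays. The groups did not overlap, with a difference of −0.92 ± 0.27 (SE), from 6.33 ± 0.35 (SD, n = 3) in normal to 5.41 ± 0.34 (SD, n = 5) in ischemic arrays. It was −0.68 among low Xist arrays, −1.32 among high ones and −0.50 with a pseudocount of 64.

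Pax8, the paired-box factor that persists along the adult nephron, had intensities of 17.8, 3.32, 28.2, 17.6 and 65.4 in ischemic and 163, 58.9 and 67.4 in normal arrays. Ischemic 5 lay among the normal arrays, so the groups overlapped. After normalization between arrays it stood at 6.252, above normal 2 (6.221) and normal 3 (6.246). The difference was −1.43 ± 0.48 (SE). Array choice moved it strongly, to −0.62 among the low Xist arrays and −2.73 among the high ones.

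Lhx1, a LIM homeobox factor of early nephron formation, was dim in both groups, at 13.9, 19.5, 10.6, 20.2 and 10.4 in ischemic and 19.8, 59.6 and 19.9 in normal arrays. Only normal 2 stood above the rest, and the difference of −0.57 ± 0.32 (SE) was −0.20 without it. It was −0.75 among low and −0.25 among high Xist arrays.

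Tfcp2l1 had the cleanest separation relative to its spread. Intensities were 26.7, 14.1, 39.7, 8.64 and 18.5 in ischemic and 171, 125 and 119 in normal arrays. Every normal array was above every ischemic array, and the ischemic mean was 5.15 ± 0.41 (SD, n = 5) and the normal mean 7.18 ± 0.32 (SD, n = 3). The difference was −2.03 ± 0.29 (SE), or 4.07-fold lower. It was −1.89 among low and −2.26 among high Xist arrays, and −1.20 with a pseudocount of 64.

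Grhl2 had intensities of 41.1, 27.9, 20.7, 25.4 and 35.6 in ischemic and 66.9, 202 and 34.3 in normal arrays. Normal 3 lay below ischemic 1 and 5, and after normalization between arrays also below ischemic 2 (5.522 against 5.548). Normal 2 was far above all other arrays. The difference of −0.99 ± 0.42 (SE) became −0.42 without normal 2 and −1.48 without normal 3, and it was −1.18 among low and −0.68 among high Xist arrays.

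**Figure D1:**
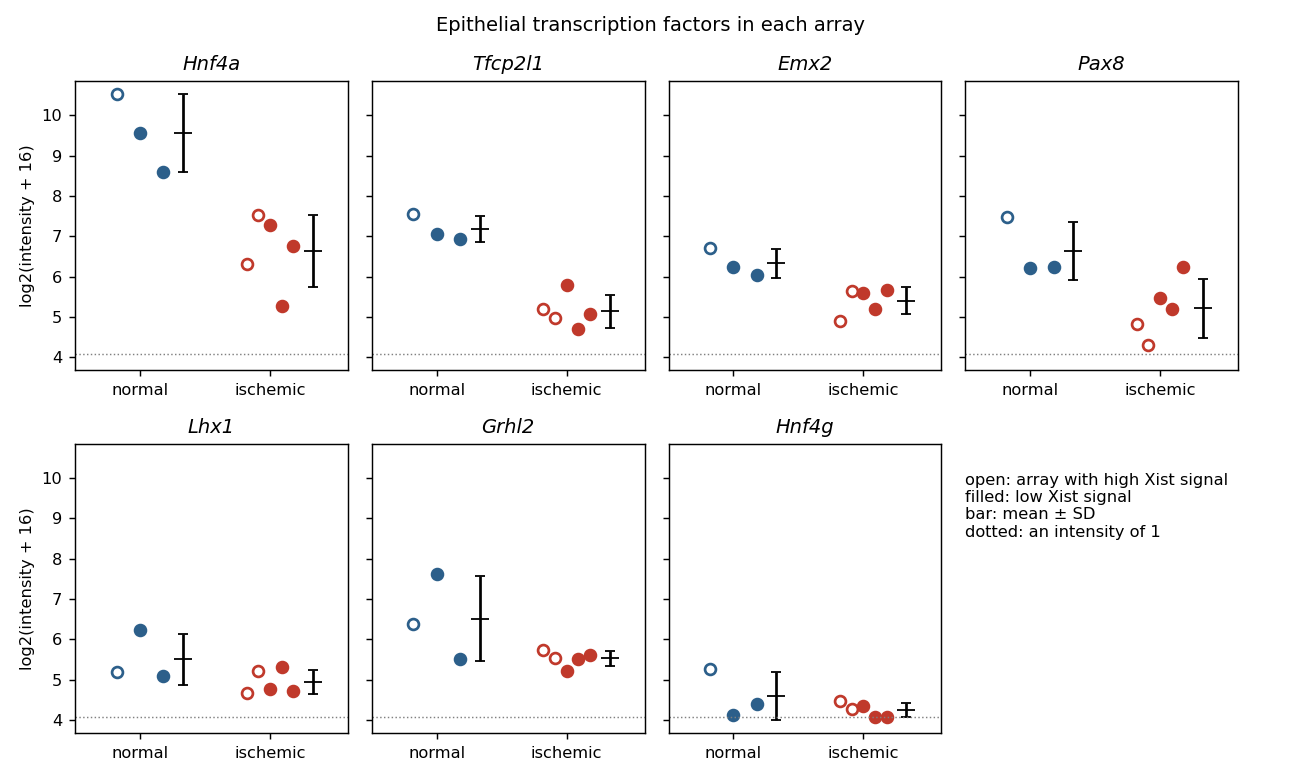
Level of each measured factor in each array (y axis, log2(intensity + 16)) in 3 normal and 5 ischemic arrays, with the mean and SD beside the points and open circles for the 3 arrays with high Xist signal. The dotted line at 4.09 is an intensity of 1. Hnf4a, Tfcp2l1 and Emx2 show no overlap between groups, and Hnf4g lies near the dotted line.

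Of the 7 measured factors, 3 thus had groups that did not overlap, all on the lower side, where 3.44% of all genes had such values. A difference of −1 or lower was seen in 3 of the 7, against 5.89% of all genes. Because this contrast chose the factors, nothing is read from either count. Their median difference was −0.99, against 0.041 for all genes. The 3 kept non-overlapping groups in each of the alternative settings run. Leaving arrays out, limma options and the brightness filter could hardly undo this, so those settings are no check of it. Pax8 joined the 3 in some settings, such as without ischemic 5, and Grhl2 without normal 3 and among high Xist arrays. The order of size was Hnf4a, Tfcp2l1, Pax8, Grhl2, Emx2, Lhx1 and Hnf4g. No pair of neighbours in that order stood clearly apart, since the gaps were 0.129 (Grhl2 and Emx2) to 1.38 (Hnf4a and Tfcp2l1) times their combined standard error. These gaps were not tested.

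Most of the 7 factors had several probe sets, and these did not always go together. Of 19 probe sets, 14 had a negative difference. In 3 the groups did not overlap on the lower side, namely those used for Hnf4a, Tfcp2l1 and Emx2. The 4 of Hnf4a were all negative, at −2.93, −2.14, −1.72 and −1.39, but the groups overlapped in all but the first. The smallest of these differences came from a probe set with 307 in ischemic 1 against 14.0 to 47.7 in the other ischemic arrays. For Tfcp2l1 the other pair of probe sets were dim, at most 10.8 and 4.59, and differed by −0.34 ± 0.21 and 0.0056 ± 0.18 (SE). The second Pax8 probe set was at −0.80 ± 0.39 (SE).

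Lhx1 and Grhl2 had probe sets of opposite sign. The second one of Lhx1 read 21.5, 16.7, 4.03, 11.8 and 10.3 in ischemic and 2.18, 1.73 and 2.05 in normal arrays. Its groups did not overlap and its difference was 0.64 ± 0.22 (SE), although all values were low. Grhl2 was at −0.99 in the probe set used, and its 3 others were at 0.43 ± 0.56, 0.28 ± 0.37 and 0.056 ± 0.25 (SE). The first of these had 120.1 in ischemic 1 and 11.7 to 20.3 in the other ischemic arrays. With the mean of all probe sets, Lhx1 was at 0.035 and Grhl2 at −0.053, so neither has a settled direction.

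**Figure D2:**
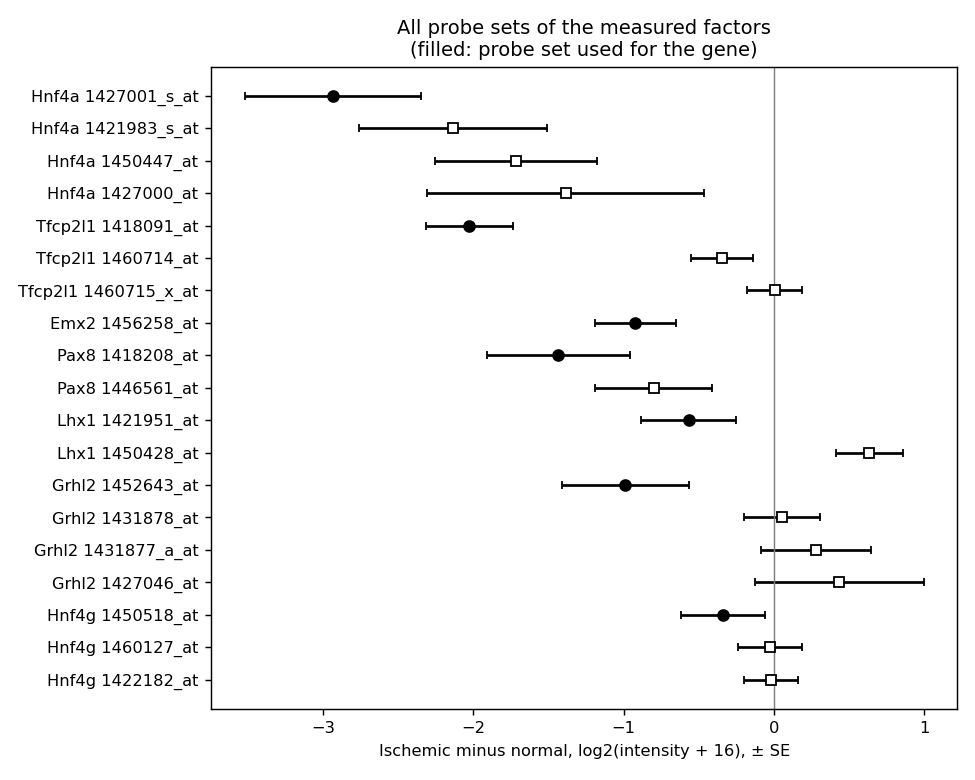
Difference between ischemic and normal arrays (x axis, log2(intensity + 16), ± SE from limma) for all 19 probe sets of the 7 measured factors, with filled symbols for the probe set used for the gene. All 4 Hnf4a probe sets are to the left of 0, while those of Lhx1 and Grhl2 lie on both sides.

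Hnf4a, Tfcp2l1, Emx2 and Pax8 were then set against markers of a tubule segment, within each array. Hnf4a minus the mean of the 10 proximal tubule markers averaged −0.73 ± 0.19 over the ischemic arrays (SD, n = 5) and −0.73 ± 0.30 over the normal ones (SD, n = 3). The difference between groups in this quantity was −0.0020, while the markers alone differed by −2.93 on average. The 8 arrays stood in the same order for Hnf4a and for the marker mean, from ischemic 4, 1, 5, 3 and 2 up to normal 3, 2 and 1. All 8 ranks matched this marker mean in 21 of 18193 genes (0.115%), Hnf4a among them. Of the other factors, Tfcp2l1 held 5 ranks with the proximal tubule markers, Pax8 4 and Emx2 3. With collecting duct markers Tfcp2l1 held 1. With the markers of the thick ascending limb and distal convoluted tubule 6 of the 8 arrays held the rank they had for Hnf4a, and with collecting duct or macrophage markers 0 did. The part of the Hnf4a order that lies between the groups follows from how Hnf4a was chosen. The order is also that of the Hnf4a probe set used, and the others did not keep it. In the probe sets at −2.14 and −1.72 ischemic 4 was the highest ischemic array, at 6.89 and 5.77. In the one at −1.39 ischemic 1 was the highest of all 8 arrays, at 8.72. With the mean of all probe sets Hnf4a minus the proximal tubule markers differed by 0.29, among low Xist arrays by 0.17 and among high ones by −0.37.

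Tfcp2l1 minus the mean of the 8 collecting duct markers averaged −0.37 ± 0.38 over the ischemic arrays (SD, n = 5) and 0.78 ± 0.51 over the normal ones (SD, n = 3). Every ischemic array was below every normal one, and the difference was −1.15. The markers alone differed by −0.87 and summed to 252 to 557 in ischemic and 924 to 1597 in normal arrays, with none at 0. Aqp2, the water channel of principal cells, reached at most 26.3. The value depended on probe sets and brightness. It was 0.030 with the mean of all probe sets, −0.57 over the 4 markers above the 40th percentile of brightness and −0.65 with a pseudocount of 64. Among low Xist arrays it was −0.94 and among high ones −1.57. The same subtraction left Emx2 at −0.049, and 0.54 over those 4 markers, with 0.27 among low and −0.62 among high Xist arrays. Pax8 minus the 6 markers of the thick ascending limb and distal convoluted tubule averaged −1.59 ± 1.06 over the ischemic arrays (SD, n = 5) and −2.67 ± 0.47 over the normal ones (SD, n = 3), with overlap. That difference of 1.08 was 1.83 among low and −0.038 among high Xist arrays, so its direction is not settled. These markers summed to 531 to 1195 and 4880 to 6035. None of these subtractions was tested, since the factors were named from the same contrast.

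**Figure D3:**
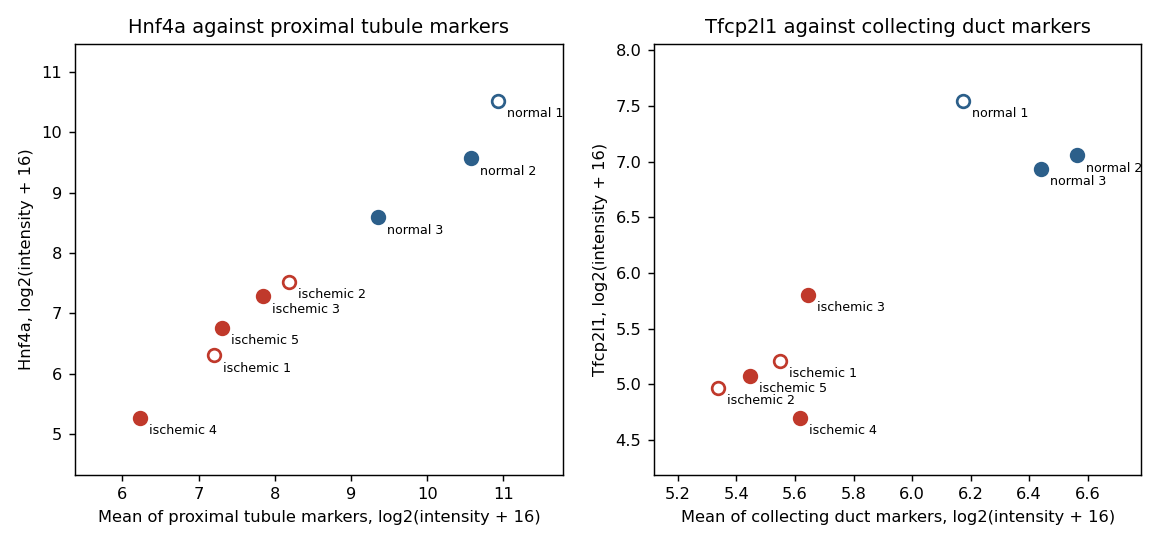
Hnf4a against the mean of 10 proximal tubule markers (left) and Tfcp2l1 against the mean of 8 collecting duct markers (right), both axes in log2(intensity + 16), with 1 point per array, blue for normal, red for ischemic and open for high Xist signal. The Hnf4a points, from the probe set used for the gene, keep the same order on both axes. For Tfcp2l1 the 5 ischemic arrays lie between 4.70 and 5.80 and the 3 normal arrays between 6.93 and 7.54.

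Other transcription factors of the kidney epithelium had, in part, the same direction. Of 23 measured, 19 had a negative difference (45.2% of all genes did), 7 had an unadjusted limma p under 0.05 on the lower side and 0 on the higher, and 0 passed the adjusted threshold. The groups did not overlap in 6, all lower (3.44% of all genes), and the list median was −0.33 (low Xist −0.62, high Xist −0.41). Averaged over the list, ischemic arrays stood at 5.31 ± 0.13 (SD, n = 5) and normal ones at 6.03 ± 0.14 (SD, n = 3). This list was written with earlier results of these data known, as were all lists below.

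The largest differences in that list lay in factors of the nephron tubule. Irx1, an Iroquois factor of nephron patterning, read 5.17, 1.66, 22.5, 7.59 and 17.1 in ischemic and 118, 212 and 71.8 in normal arrays. The normal arrays were all higher, with a difference of −2.35 ± 0.38 (SE; limma adjusted p = 0.133). Esrrg, an orphan nuclear receptor of mitochondrial and tubular genes, read 42.6, 19.0, 12.9, 16.2 and 32.6 against 398, 143 and 124. Its difference was −2.31 ± 0.41 (SE; limma adjusted p = 0.140), again with no overlap.

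Pou3f3, a POU factor of the loop of Henle, read 61.9, 17.0, 52.0, 19.9 and 97.1 in ischemic and 409, 232 and 213 in normal arrays, a difference of −2.14 ± 0.43 (SE; limma adjusted p = 0.156). Tfap2b, which acts in the distal nephron, read 10.1, 7.07, 15.0, 4.49 and 17.3 against 94.9, 38.2 and 53.7. Its difference was −1.50 ± 0.29 (SE; limma adjusted p = 0.149). Klf15, a factor of the metabolic response to fasting and glucocorticoids, differed by −1.62 ± 0.40 and Nr1h4, the bile acid receptor FXR, by −1.53 ± 0.40 (SE; limma adjusted p = 0.224 and 0.254). Klf15 lay at the bottom of the scale in ischemic arrays, at 1.04 to 4.81. In normal arrays 1 to 3 it read 76.3, 62.1 and 10.1. These 6 factors had no overlap between groups, and none passed the test.

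Ppara, the nuclear receptor of fatty acid oxidation genes, showed how far normal arrays could differ. It read 871 and 514 in normal 1 and 2 but 20.2 in normal 3, which lay within the ischemic range of 9.32 to 74.0. Its difference was −2.35 ± 0.95 (SE; limma adjusted p = 0.642). Without normal 3 it was −3.73, and Ppara, Klf15 and Irx1 then passed the threshold (limma adjusted p = 0.0408, 0.0273 and 0.0418). They were among 112 of 18193 genes that passed in that setting. Normal 3 also had the lowest mean of proximal tubule markers among the normal arrays, at 9.35 against 10.93 in normal 1 and 10.57 in normal 2.

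The factors that did not go the same way included collecting duct and surface epithelium factors. Gata3 differed by 0.11 ± 0.47, Klf5 by 0.57 ± 0.50 and Grhl1, the grainyhead paralog of Grhl2, by 0.65 ± 0.36 (SE). All of these overlapped between groups. Mecom differed by −0.54 ± 0.83 (SE), with a range of 59.3 to 969 among the ischemic arrays alone.

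**Figure D4:**
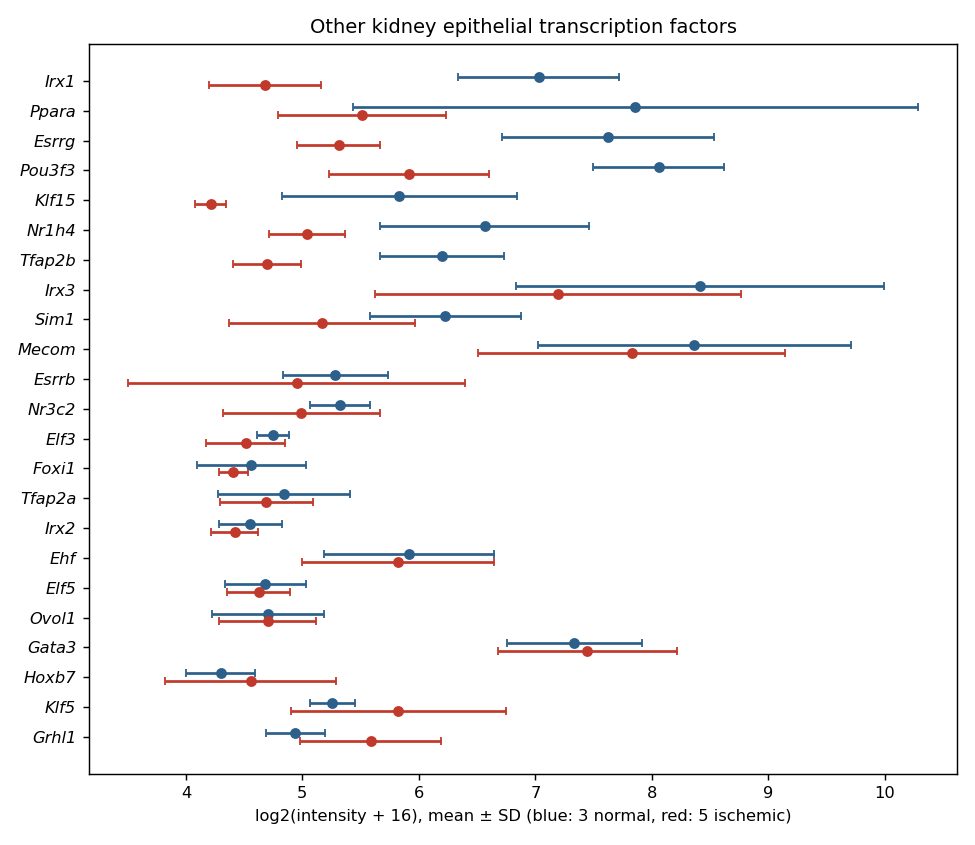
Mean ± SD of 23 other kidney epithelial transcription factors in 3 normal (blue) and 5 ischemic (red) arrays on the log2(intensity + 16) scale (x axis). Irx1, Esrrg and Pou3f3 have red and blue means more than 2 units apart, while Gata3, Klf5 and Grhl1 have the red mean to the right.

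Factors of other cell types and states gave a mixed pattern, with 0 past the adjusted threshold in each list. Of 8 nephron progenitor factors 3 were negative, with Sall1 at −1.47 ± 0.57 (SE), and the list median was 0.12 (low Xist −0.0068, high Xist 0.094). The groups did not overlap in Eya1 (0.46 ± 0.34, SE) and Cited1 (0.25 ± 0.19, SE), both higher in ischemic arrays but dim, with Cited1 named after its values were seen (1.89% of all genes had such values). The 10 factors of injury and dedifferentiation split evenly, with 5 negative and 5 positive and a median of 0.027 (low Xist −0.37, high Xist 0.49), from Sox4 at −1.26 ± 0.48 to Zeb2, a repressor of epithelial genes that macrophages also express, at 0.77 ± 0.31 (SE). Of 11 macrophage factors 9 were positive, with a median of 0.56 (low Xist 0.23, high Xist 0.59), and Runx1 was at 0.89 ± 0.37 (SE). The 9 stromal factors had a median of 0.077 (low Xist 0.11, high Xist 0.20). The 8 endothelial ones had −0.57 (low Xist −0.25, high Xist 0.016), with Sox17 at −0.95 ± 0.93 and Fli1 at 0.98 ± 0.34 (SE).

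Of all the lists, genes that HNF4 factors are known to act on in the proximal tubule had the median furthest from 0. All 13 measured genes of this list were negative, 11 had an unadjusted limma p under 0.05 (5.02% of all genes on that side), 10 had groups that did not overlap (3.44%), and 0 passed the adjusted threshold. The list median was −3.51 (low Xist −2.55, high Xist −3.87). It shares several genes with the 10 proximal tubule markers, which were all negative, with a median of −3.34 and no overlap in 8. The 6 markers of the thick ascending limb and distal convoluted tubule were also all negative, with a median of −2.53 and no overlap in 6. The part of HNF4 in these values was not tested. Lrp2, the endocytic receptor megalin, read 26.7, 154, 86.2, 7.83 and 54.8 in ischemic and 2170, 1143 and 485 in normal arrays. Ischemic 4 was the lowest array for Lrp2, as for the Hnf4a probe set used. Its difference was −3.87 ± 0.71 (SE; limma adjusted p = 0.140), and that of Slc34a1, the sodium phosphate cotransporter, was −3.88 ± 0.97 (SE). Cdhr5, a brush border cadherin, was at −0.25 ± 0.31, and Pck1, an enzyme of gluconeogenesis, at −2.25 ± 0.43 (SE).

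Genes linked to GRHL2, which maintains junctions, did not share that pattern. Of 9 measured, 4 were negative and 5 positive, with a median of 0.19 (low Xist −0.076, high Xist 0.20). Epcam was at −1.38 ± 0.61 and Cdh1, the epithelial cadherin, at −0.99 ± 0.56, while St14, a membrane protease, was at 0.58 ± 0.52 (SE). The groups did not overlap in 1 gene, Cldn7, a claudin named after its value was seen, at −1.18 ± 0.40 (SE), where 3.44% of all genes were apart on that side. None passed the adjusted threshold.

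Among 14 genes of collecting duct and intercalated cells 13 were negative (45.2% of all genes were), 3 had groups that did not overlap on the lower side (3.44%), and 0 passed the adjusted threshold. The median was −0.67 (low Xist −0.89, high Xist −0.18). Hsd11b2, the enzyme that protects the mineralocorticoid receptor from glucocorticoids, read 26.0, 13.4, 188, 28.6 and 112 in ischemic and 364, 484 and 524 in normal arrays, a difference of −2.70 ± 0.61 (SE). Kcnj1, the potassium channel ROMK, differed by −1.73 ± 0.37 and Aqp3, a basolateral water channel, by −1.37 ± 0.48 (SE). Avpr2, the vasopressin receptor, was at 0.51 ± 0.67 (SE). The 10 genes of the ureteric bud and nephron induction had a median of −0.038 (low Xist −0.057, high Xist 0.25), and 5 of them were negative. Cdh16, the kidney cadherin of mature tubules, differed by −2.34 ± 0.59, while Wnt4, which induces the nephron, was at 0.46 ± 0.39 (SE).

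**Figure D5:**
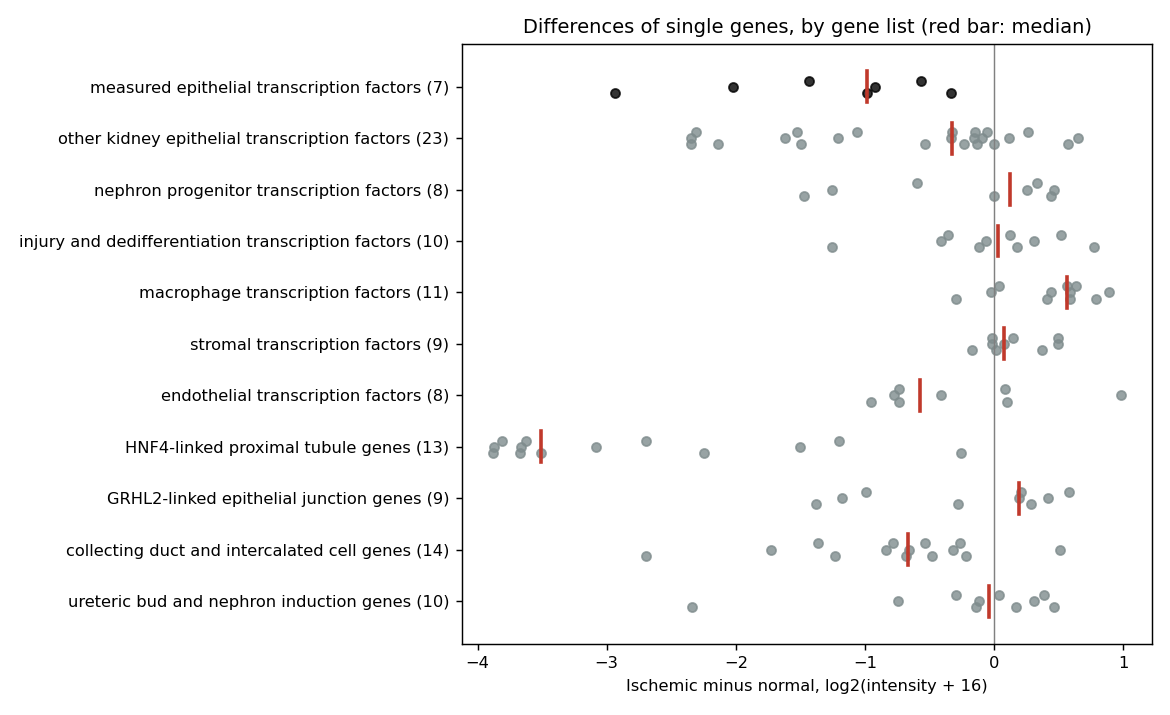
Difference between ischemic and normal arrays (x axis, log2(intensity + 16)) of single genes, with 1 point per gene, for the 7 measured factors (black) and 10 other lists (grey), and a red bar at each list's median. The HNF4-linked list has its median at −3.51, and the GRHL2-linked list has points on both sides of 0.

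Markers of other cell types differed as well. All 12 macrophage markers were positive (median 0.53, low Xist 0.44, high Xist 0.96), 3 with no overlap between groups (1.89% of all genes on that side), and the largest difference was that of Mrc1, the mannose receptor, at 2.08 ± 0.31 (SE; limma adjusted p = 0.122). The 7 endothelial markers were all negative, with a median of −1.15 (low Xist −0.60, high Xist −1.43), and the 4 measured podocyte markers had a median of −0.82 (low Xist −0.15, high Xist −1.29). The part of these cell types in the factors' values was not tested.

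Across the 8 arrays the factors varied together to different degrees. These are descriptions over arrays that share the difference between groups. Hnf4a had r = 0.937 with Emx2 (rho = 0.905) and 0.934 with Tfcp2l1 (rho = 0.833). Lhx1 and Grhl2 had r = 0.837 but rho = 0.143, and both were highest in normal 2.

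Among 9096 genes at or above the median level, those most like each factor over the 8 arrays were found by Pearson correlation. For Hnf4a they were Cgref1, Lrp2 and Pdzk1, a scaffold of brush border transporters, each at 0.992. For Tfcp2l1 they were Tmigd1 at 0.994, Nat8 at 0.984 and Ublcp1 at 0.979, and for Emx2 Acbd4 at 0.994, Ghr, the growth hormone receptor, at 0.992 and Gcnt1 at 0.988. Pax8 was most like Bcar1 (0.980), Afap1 (0.974) and Aamdc (0.968). Grhl2 was most like Pitpnm2 (0.962), Faah (0.961) and Hook3 (0.958). The nearest to Lhx1 was Pnrc2 at 0.945 and to Hnf4g Lyplal1 at 0.960. The mean of the 7 factors was closest to Sod3, the extracellular superoxide dismutase, and Them7, both at 0.989, then to Hint2 and Hgd at 0.986.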

How the data were processed

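GFP-positive cells were sorted from 5 ischemic and 3 normal kidneys. Per the labels' protocols, RNA was isolated with Qiagen miRNeasy, amplified with NuGEN WT-Ovation Pico and labelled with FL-Ovation. The authors deposited linear intensities for 45101 probe sets, with total intensities of 6042481 to 7946257 per array. Which software and scaling made them is not stated in the labels or file.

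Intensities were taken as log2(value + 16) and quantile normalized without the 64 control probe sets. Of the rest, 34945 had 1 gene symbol, 932 several and 9160 none listed, and 34741 symbols matched RefSeq. The probe set with the highest mean represented each of 18193 genes, with no filter on brightness. Groups were compared with limma 3.58.1 (lmFit, eBayes, Benjamini-Hochberg over all genes) in R 4.3.3, tested on simulated data. S100a4 was compared by exact permutation over 56 splits, whose smallest p is 0.0179. The number of arrays limits the precision. Promoters were searched with Python 3.11.15 and figures drawn with matplotlib 3.10.9.

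The members and the 20 lists (182 genes, 171 measured) were chosen with earlier results of these data known. Named genes were the members, S100a4, Xist, any other epithelial factor, the 4 brightest and both extremes of each other list, and the genes most like each member. Aqp2, Cited1, Cldn7, Eif2s3y, Kdm5d and Uty are outside that rule and were named after their values were seen. The division by Xist signal and the comparison of array order were added after the data were seen. Alternatives changed the pseudocount, scaling, brightness filter, probe set rule, limma options and arrays.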

Additional observations from a re-analysis of the deposited data

How the results depend on the processing

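The 7 factors' median difference of −0.99 was −0.62 with a pseudocount of 64, −1.43 with genes at or above the 40th percentile (5 factors), −1.32 among the 3 arrays with high Xist signal, and from −1.48 (without normal 3) to −0.95 with 1 array left out. The count of 3 factors with no overlap was 6 among high Xist arrays, which hold 2 ischemic arrays and 1 normal, and 3 to 4 with 1 array left out. Leaving arrays out could hardly lower that count. The count of genes past the adjusted limma threshold, 0 of 18193, was 1 with a pseudocount of 1, 2 with values as deposited and also 2 when a gene's probe sets were averaged. It was 5 with array weights, 15 at or above the 40th percentile, 31 with an intensity trend (30 lower) and 177 (175 lower) under centring on ribosomal protein genes. That centring shifts the all-gene median from 0.041 to −0.10. With 1 array left out the count ran from 0 to 112 (without normal 3, 105 lower). The count of list genes past the threshold, also 0, was 20 with ribosomal centring, 5 with the trend and 0 to 10 with 1 array left out (10 without normal 3). The S100a4 difference ran from 0.22 to 0.53 with 1 array left out. Without ischemic 1 it was 0.47 and passed the exact test. Deviations from the group means had correlations of 0.16, −0.088 and 0.10 between same-numbered arrays. Arrays of different number had −0.203 to 0.175. These values cannot decide whether the numbers pair kidneys, and the labels do not state it. With the replicate number as a block in arrays 1 to 3, 0 genes passed and the factors' median was −0.99. Pax8 and Grhl2 reach no firmer statement at these intensities, and Hnf4g and Lhx1 lie too near the floor of 4.09 for a difference to be read.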

Other observations

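Results that belong to no comparison above concern the remaining marker lists, given as values. The 3 measured B cell markers had a median difference of 0.68, with summed intensities of 56 to 1161 in ischemic and 65 to 313 in normal arrays, the highest in ischemic 1. That median was −0.075 without ischemic 1, −0.088 among low Xist arrays and 1.38 among high ones, so its direction rests on the arrays used. Without other arrays it ran from 0.28 (normal 3) to 1.11 (ischemic 5). The 5 T and NK cell markers had a median of −0.00037 (low Xist −0.018, high Xist −0.090), and summed to 38 to 844 and 76 to 716. Alas2, the first enzyme of heme synthesis in red cells, was at −1.60 and Hba-a1 at 0.34, the latter dim at 1.2 to 28.5. The 3 measured erythroid markers had a median of −1.50, which is the value of Slc4a1. That median was −0.81 without normal 1, −0.36 among low Xist arrays and −1.50 among high ones. The erythroid markers summed to 46 to 123 in ischemic and 174 to 510 in normal arrays.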
